A study of Mus musculus with 24 samples.

Results

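The 36 genes described here make up the fibroblast growth factor (FGF) system of mouse embryonic stem cells (ESCs) as far as its signals, its receptors and its ERK feedback genes go. They are 22 ligand genes (Fgf1 to Fgf18 and Fgf20 to Fgf23), 5 receptor genes (Fgfr1 to Fgfr4 and Fgfrl1) and 9 feedback genes (Spry1 to Spry4, Dusp4, Dusp6, Etv1, Etv4 and Etv5). The ligand role follows the gene names and includes the homologous factors Fgf11 to Fgf14, which are intracellular. Members were named by gene symbol, not by a threshold on a measured value, though earlier results of these data were known when the list was made. They were taken out of 19409 symbols on 20633 transcript rows. Where a symbol had several transcript rows, the row with the largest summed signal over the 12 libraries was used, and 33 of the 36 members had at least 10 reads in at least 3 libraries and were tested.

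Most FGFs are secreted proteins that bind receptor tyrosine kinases together with heparan sulphate on the cell surface. The bound receptors act through the adaptor FRS2 and the RAS, RAF, MEK and ERK kinases, and ERK in turn raises the transcription of its own brakes, the Sprouty proteins and the dual-specificity phosphatases, and of the ETS factors of the Etv4 and Etv5 family. In mouse ESCs, FGF4 made by the cells themselves is the best known activator of ERK, which takes cells out of the naive state, and in the blastocyst FGF4 from the epiblast directs neighbouring cells to primitive endoderm. Polycomb repressive complex 1 (PRC1) is the E3 ligase that places monoubiquitin on histone H2A, through its RING1A or RING1B subunit, and it keeps many developmental genes repressed in ESCs.

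Expression was measured by calibrated RNA-seq (cRNA-seq), in which Drosophila SG4 cells are mixed with the ESCs before RNA is prepared so that the signal is set per cell, in 2 E14 lines that each come from 1 clone. PRC1CKO cells (clone B9) are Ring1a-/- and carry Ring1bfl/fl with Rosa26::ERT2-Cre, so they lack RING1A throughout, and tamoxifen (OHT) removes RING1B. PRC1CPM cells (clone 41) carry Ring1aI50A/D53K and Ring1b(WT->I53A/D56K)fl/fl with the same Cre, so their RING1A is catalytically inactive throughout, and OHT replaces RING1B with an inactive form. Each line was grown in serum and LIF on gelatin and was sequenced untreated (UNT) and after 72 h with 800 nM OHT, with 3 replicates in each of the 4 conditions. No line without the floxed alleles was treated here, so an effect of OHT or of Cre itself cannot be told apart from that of the allele change.

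Reads on genes numbered 14668159 in the shallowest and 27016156 in the deepest library, with condition medians of 20998133 (untreated PRC1CKO), 24004077 (OHT-treated PRC1CKO), 19062652 (untreated PRC1CPM) and 23164194 (OHT-treated PRC1CPM). Values below are normalised read counts, the reads on a gene body divided by the size factor of the library, and levels of different genes are compared only per kb of gene body. The summed normalised read count differed between replicates, and replicate 1 had the highest total in each condition (24958331, 22092158, 24373383 and 26077686, against 17618069 to 21836456 in the other 8 libraries). With replicates 2 and 3 alone, 9 members were called higher and 2 lower after OHT treatment in PRC1CKO cells (19.5% and 2.12% of all transcripts) and 8 and 1 in PRC1CPM cells (11.6% and 1.62%). These counts equal those from all libraries, but Fgfrl1 takes the place of Fgf3 in PRC1CKO and Fgf10 that of Spry4 in PRC1CPM cells. Expression in bulk cultures is an average, so fewer cells of a type and less RNA per cell cannot be told apart.

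The targeted genes were examined first. Rnf2, which encodes RING1B, stood at 1756, 1436 and 1385 in untreated and 1489, 1565 and 1585 in OHT-treated PRC1CKO cells, and at 1850, 1659 and 1578 and then 1724, 1295 and 1513 in PRC1CPM cells. Its log2 fold change was 0.03 in PRC1CKO and -0.17 in PRC1CPM cells, neither of which was called. OHT removes 1 coding exon of Rnf2 in PRC1CKO cells and inverts an exon pair in PRC1CPM cells, and these counts cover the whole gene body, so they do not check the labels. Ring1, which encodes RING1A, was at 166 to 313 in PRC1CKO and 111 to 182 in PRC1CPM cells, so the line labelled Ring1a-/- did not have the lower count. The deletion takes out part of the gene, its first 3 exons, and the count over the whole body cannot check this label either.

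The cultures carried signal of marker genes listed for naive ESCs. Of 12 marker genes fixed for that state, 11 had a row, and Sox2 had the most signal per kb, with condition means of 2913 and 1558 normalised reads per kb in untreated and treated PRC1CKO and 2535 and 1862 in PRC1CPM cells. Summed over the list, naive markers stood at 78812, 63170 and 63698 in untreated and 54229, 59188 and 63428 in OHT-treated PRC1CKO cells, and at 59152, 50072 and 50622 and then 61035, 41280 and 63034 in PRC1CPM cells. The ranges of the 2 treatments overlapped in both lines, in PRC1CKO cells narrowly (63428 treated against 63170 untreated). In that line limma called 4 of the 11 genes lower (3.09% of all transcripts). Dnmt3b, a marker listed for the primed epiblast, was at 1884 to 4591 in the 12 libraries, so the sums do not set the naive state apart.

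In untreated cells, a few members carried most of the signal per kb in each role. Among ligands, Fgf4 stood far above the others at 1282 ± 330 normalised reads per kb in PRC1CKO and 1689 ± 337 in PRC1CPM cells (mean ± SD, n = 3). The next were Fgf15, the gut and neural tube ligand, at 61.9 ± 22.1 and 64.4 ± 18.3, and Fgf17, a ligand of the Fgf8 subfamily, at 42.2 ± 6.61 and 52.3 ± 11.3, and these neighbours overlapped in their spread. Fgfr1 led the receptors at 69.3 ± 25.8 and 62.2 ± 18.7, followed by Fgfrl1, a receptor without a kinase domain, at 30.4 ± 7.59 and 40.4 ± 5.73 and Fgfr4 at 21.7 ± 4.31 and 24.2 ± 6.77. The feedback genes with the most signal were Spry2, Dusp6 and Spry4, at 270 ± 59.4, 219 ± 83.5 and 169 ± 48.1 in PRC1CKO cells and 246 ± 13.8, 145 ± 25.4 and 104 ± 12.9 in PRC1CPM cells.

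**Figure D1:**
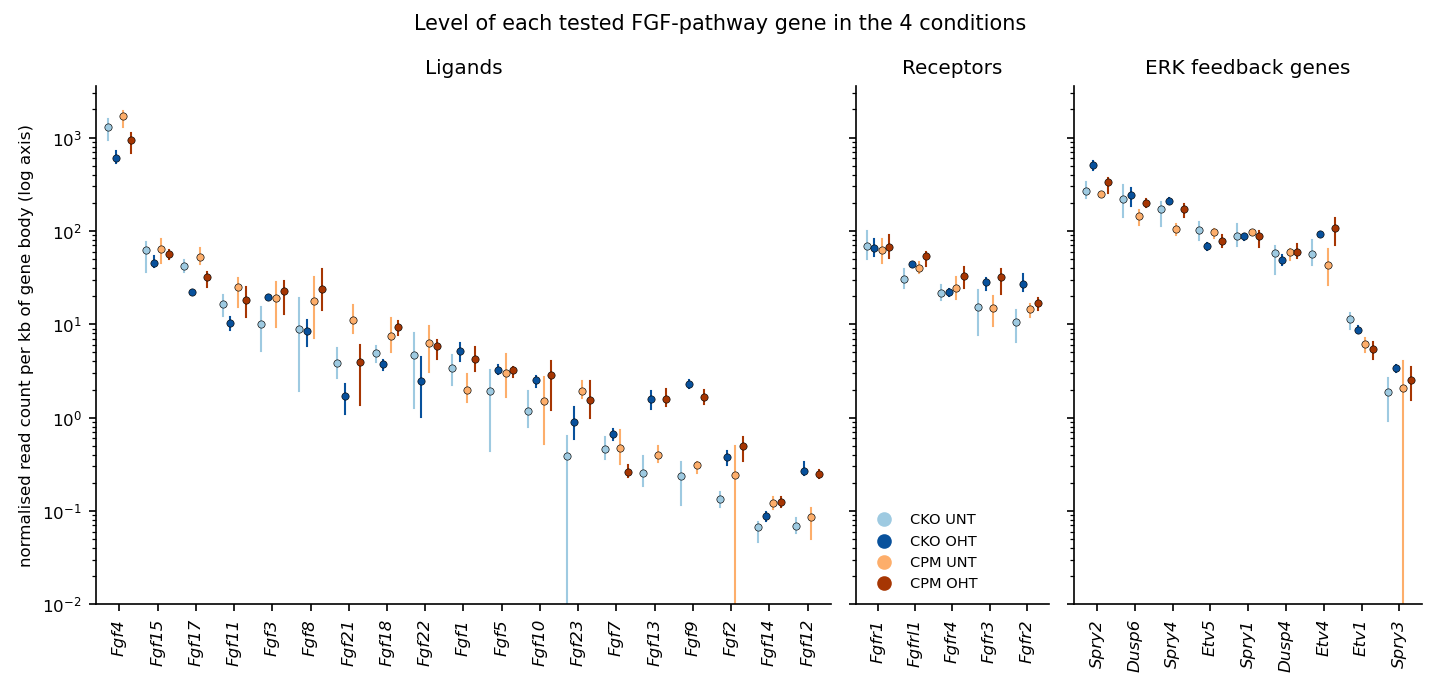
Normalised read count per kb of gene body (log axis) of the 33 tested members in the 4 conditions, by role and ordered by untreated level; dots are means of 3 libraries, lines run from the lowest to the highest library, and a line that reaches the bottom edge has a library at 0. Fgf4 lies above every other ligand in all 4 conditions, at 606 to 1689 per kb on average, while Fgf12 and Fgf14 lie at the bottom.

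After OHT treatment, more members rose than fell in both lines, and the main autocrine ligand Fgf4 fell in both. Differences were tested with limma on log2(normalised read count + 1) across all 16940 transcripts that passed the filter, and a gene was called where the change exceeded 1.5-fold and its adjusted p was under 0.05. By this rule 9 of the 33 members rose and 2 fell in PRC1CKO cells (27.3% and 6.06%). Over all transcripts tested, 16.5% rose and 3.09% fell (19.5% in either direction). In PRC1CPM cells 8 members rose and 1 fell (24.2% and 3.03%), against 13.1% and 1.4% of all transcripts (14.5% in either direction). The split between directions depends on the scale. With TMM factors in place of the spike-in scale, 8 members (24.2%) rose and 3 fell in PRC1CKO cells, against 16.8% and 6.69% of all transcripts, and 5 (15.2%) rose and 3 fell in PRC1CPM cells, against 14.1% and 3.51%. Without the gDNA-seq correction 7 rose and 3 fell in PRC1CKO cells (12.6% and 3.93% of all transcripts) and 11 and 0 in PRC1CPM cells (20.2% and 0.401%). By limma the share of members that rose thus stood above that of all transcripts on each scale, by little in PRC1CPM cells with TMM. With DESeq2, however, 5 of the 33 members rose in PRC1CKO cells, a share below the 16.3% of all transcripts. These differences were not tested.

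Fgf9, Fgf12, Fgf13, Fgfr3 and Etv4 rose in both lines and Fgf4 fell in both by limma. Fgf3, Fgf10, Fgfr2 and Spry2 were called higher only in PRC1CKO cells, Fgf1, Fgf2 and Spry4 only in PRC1CPM cells, and Fgf17 was called lower in PRC1CKO cells, and in PRC1CPM cells by DESeq2, with TMM or with the replicate block. The interaction of line and treatment, which tests whether the responses differ, called 0 of the 33 members by limma (0.0236% of all transcripts), DESeq2 or edgeR, and 1, Fgfr2, had an unadjusted p under 0.05 by limma. With the replicate number as a block, the interaction called Fgfr2 lower and 0 members higher (background 1.45% and 0.46%). Libraries of the same number correlated weakly, at 0.0988 to 0.179 for PRC1CKO treatment. For the other members a call in 1 line alone was not shown to be a difference between the lines.

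By role, 5 of 19 ligands, 2 of 5 receptors and 2 of 9 feedback genes rose in PRC1CKO cells by limma (16.5% of all transcripts). In PRC1CPM cells 5, 1 and 2 rose (13.1% of all transcripts). Both ligand counts include the intracellular factors Fgf12 and Fgf13. The members that fell were all ligands, where 3.09% and 1.4% of all transcripts fell. Differences between roles or from the background were not tested. These counts depend on the scale. With TMM factors 3 ligands rose and 3 fell in PRC1CPM cells (14.1% and 3.51% of all transcripts), with 1 receptor and 1 feedback gene higher. Without the gDNA-seq correction 6 ligands, 1 receptor and 4 feedback genes rose there (20.2% of all transcripts). In PRC1CKO cells both of these scales added a feedback gene, Etv5, to those that fell (6.69% and 3.93% of all transcripts). The median log2 fold change of the 19 tested ligands was 0.55 ± 0.14 in PRC1CKO and 0.22 ± 0.24 in PRC1CPM cells (SD over the 3 OHT libraries). For the 5 receptors it was 0.56 ± 0.052 and 0.39 ± 0.28, and for the 9 feedback genes 0.18 ± 0.11 and 0.41 ± 0.25. All transcripts tested had medians of 0.12 and 0.10 on this scale. The feedback median turned to -0.11 in PRC1CKO cells without untreated replicate 3 and to -0.07 in PRC1CPM cells without untreated replicate 3, so its sign rested on 1 library in each line.

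**Figure D2:**
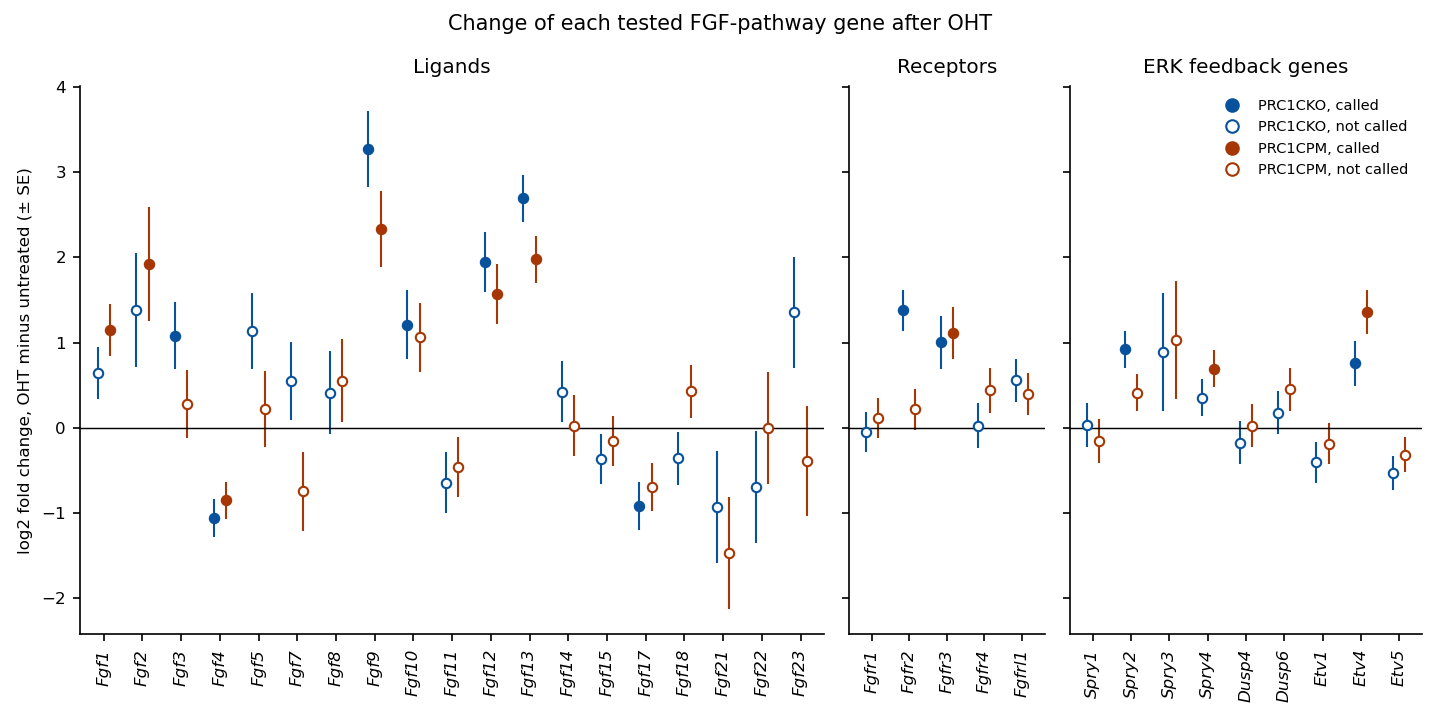
Log2 fold change (OHT against untreated) of the 33 tested members, by role, in PRC1CKO and PRC1CPM cells; bars are standard errors from limma, and filled points passed the threshold. Fgf9 and Fgf13 lie highest in PRC1CKO cells at 3.28 and 2.69. Fgf4 is the filled point below 0 in both lines, and Fgf17 is filled below 0 in PRC1CKO cells alone.

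The ligands that rose in both lines were Fgf9 and the intracellular factors Fgf12 and Fgf13, and their promoters are shown because these increases were the largest among members called in both lines. Each sequence runs 5′ to 3′ on the strand of the gene, from 250 bases before to 50 bases after the start in RefSeq (GRCm38.p6), with every CG dinucleotide in capitals. The windows are chr14:58072436-58072735 (plus strand) for Fgf9, chrX:59585523-59585822 (minus strand) for Fgf13 and chr16:28753194-28753493 (minus strand) for Fgf12. The receptor Fgfr3 (chr5:33721474-33721773, plus strand), which also rose in both lines, and Fgf4 (chr7:144861136-144861435, plus strand), which fell in both, are printed beside them.
Fgf9: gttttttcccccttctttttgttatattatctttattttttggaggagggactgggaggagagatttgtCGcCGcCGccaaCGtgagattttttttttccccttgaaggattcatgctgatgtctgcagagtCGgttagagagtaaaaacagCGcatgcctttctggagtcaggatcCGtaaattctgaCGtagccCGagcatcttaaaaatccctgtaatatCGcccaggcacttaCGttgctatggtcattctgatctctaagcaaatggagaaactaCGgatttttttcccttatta
Fgf13: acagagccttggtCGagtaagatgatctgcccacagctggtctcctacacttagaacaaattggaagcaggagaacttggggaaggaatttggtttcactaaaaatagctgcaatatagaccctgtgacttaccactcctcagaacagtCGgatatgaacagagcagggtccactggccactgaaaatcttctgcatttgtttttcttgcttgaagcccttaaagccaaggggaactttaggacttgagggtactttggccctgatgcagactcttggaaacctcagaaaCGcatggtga
Fgf12: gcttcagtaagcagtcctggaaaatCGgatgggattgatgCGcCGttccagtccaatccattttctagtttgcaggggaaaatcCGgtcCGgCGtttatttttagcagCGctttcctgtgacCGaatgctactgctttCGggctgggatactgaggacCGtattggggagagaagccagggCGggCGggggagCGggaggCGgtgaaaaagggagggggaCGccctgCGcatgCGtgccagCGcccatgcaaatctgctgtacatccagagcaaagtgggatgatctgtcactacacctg
Fgfr3: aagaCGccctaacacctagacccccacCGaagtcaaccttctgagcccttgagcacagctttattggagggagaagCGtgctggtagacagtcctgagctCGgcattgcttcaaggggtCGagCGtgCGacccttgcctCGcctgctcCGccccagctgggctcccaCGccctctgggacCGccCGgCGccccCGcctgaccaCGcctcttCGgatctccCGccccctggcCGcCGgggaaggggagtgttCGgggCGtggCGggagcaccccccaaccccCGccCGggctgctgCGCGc
Fgf4: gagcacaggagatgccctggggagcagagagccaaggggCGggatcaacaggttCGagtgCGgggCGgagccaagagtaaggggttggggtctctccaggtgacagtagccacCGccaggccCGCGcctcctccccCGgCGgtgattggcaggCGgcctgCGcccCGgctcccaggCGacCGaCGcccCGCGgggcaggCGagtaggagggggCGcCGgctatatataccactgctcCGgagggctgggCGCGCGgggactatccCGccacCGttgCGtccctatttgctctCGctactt

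The Fgf9 window holds 12 CG dinucleotides, that of Fgf12 18, that of Fgfr3 26 and that of Fgf4 28, whereas that of Fgf13 holds 3. Among the 32851 promoters of the RefSeq table the median is 7. Promoters of 24 of the 36 members could be matched in the table, and 20 of them were above that median, with a median of 18 (range 3 to 47). By role the medians were 12 for 15 ligands, 23 for 4 receptors and 28 for 5 feedback genes. The 9 matched members that rose in a line had a median of 14 (range 3 to 28) and the 13 that were called in neither line 19 (range 5 to 47), so the ranges overlapped. Some matched starts differ from that of the row used, by -564 bases for Fgf11, -176 for Etv1 and -10 for Fgf22 (negative is upstream). The 5 is that of Fgf11.

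Short motifs were counted on both strands of the same windows. The ETS core CCGGAA, the kind of site that Etv4 and Etv5 proteins bind, was in 4 of the 24 member promoters (16.7%) and in 14.9% of all promoters. The E-box CACGTG was in 4 (16.7%, against 7.15% of all), and the TATA box TATAAA was in those of Fgf5 and Fgf21 (8.33%, against 13.6%). These counts describe letters in a window of 300 bases and not binding.

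Fgf9 (NM_013518, chr14:58072686-58112720 on GRCm38, as are all positions below), a ligand of the epithelium and gonad that signals to mesenchyme, was close to silent in untreated cells. It stood at 13.4, 4.62 and 10.1 in untreated PRC1CKO cells, from 6 to 12 reads a library, and at 100.3, 94.4 and 83.7 after OHT treatment. In PRC1CPM cells the values were 10.2, 13.2 and 13.6 before and 79.2, 56.4 and 63.5 after. Every treated library lay above every untreated library by a wide margin. The log2 fold change was 3.28 ± 0.44 (SE) in PRC1CKO cells (9.68-fold, limma adjusted p = 5.02e-08) and 2.33 ± 0.44 in PRC1CPM cells (5.04-fold, adjusted p = 7.85e-05), the largest of any member in both lines in the fit of all libraries. In PRC1CPM cells Fgf2 reached 3.03 under an alternative and 2.91 with 1 library left out, where Fgf9 reached at most 2.61 and 2.44. Folds are on the log2(normalised read count + 1) scale, on which the added 1 draws low levels together.

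Fgf13 (NM_001290414, chrX:59062146-59585572, minus strand) encodes an intracellular FGF homologous factor, which is not secreted and binds voltage-gated sodium channels and microtubules. It rose from 204.1, 96.2 and 101.5 to 1013, 651.6 and 832.2 in PRC1CKO cells and from 258.3, 174.3 and 191.1 to 1048, 691.2 and 732.8 in PRC1CPM cells. The conditions did not overlap in either line, and the treated levels of the 2 lines were alike in range. Its log2 fold changes were 2.69 ± 0.28 (6.46-fold, limma adjusted p = 5.02e-11) and 1.98 ± 0.28 (3.94-fold, adjusted p = 3.36e-07). The 523-kb body used here contains 2 shorter transcript rows of 104 and 72.3 kb, which rose by 1.44 and 1.43 in PRC1CKO cells, but in PRC1CPM cells their changes of 0.80 (adjusted p = 0.0803) and 0.74 (adjusted p = 0.117) were not called. Nested bodies share reads, so these rows are not independent measurements.

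Fgf12 (NM_010199, chr16:28157783-28753243, minus strand) encodes another homologous factor of the same kind. It rose from 38.73, 50.02 and 34.67 to 197.1, 143.5 and 143.1 in PRC1CKO cells, and from 61.4, 64.1 and 29.8 to 162.2, 146.9 and 135.8 in PRC1CPM cells. No treated library came down to the untreated range. The log2 fold changes were 1.94 ± 0.35 (3.85-fold, limma adjusted p = 1.83e-05) and 1.57 ± 0.35 (2.98-fold, adjusted p = 0.000692). Both shorter rows of this gene also rose in both lines, by 2.68 and 1.54 for the 407-kb row and 2.81 and 2.49 for the 49.1-kb row. Per kb, Fgf12 remained low, at 0.271 ± 0.052 in treated PRC1CKO cells against 606 ± 94.4 for Fgf4. The calls of Fgf9, Fgf12 and Fgf13 held in both lines under each of the alternatives run and with any 1 library left out.

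Fgf14 (NM_010201), the remaining homologous factor with a long gene body, was between 32.1 and 99.0 in the 12 libraries and was not called after OHT treatment in either line (0.43 and 0.03). Fgf11, the other member of that subfamily, was 48.8 to 177.6 and was not called either (-0.64 and -0.46).

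Fgf4 (NM_010202, chr7:144861386-144865243), the ligand through which ESCs stimulate themselves, fell in both lines. It stood at 6156, 3617 and 5062 in untreated PRC1CKO cells and at 2055, 2208 and 2748 after OHT treatment. In PRC1CPM cells the values were 7476, 5036 and 7028 before and 4021, 2603 and 4295 after. No treated library reached the lowest untreated one in either line, and Fgf4 was still the most abundant ligand per kb, at 606 ± 94.4 and 944 ± 235. The log2 fold change was -1.06 ± 0.22 in PRC1CKO cells (2.08-fold lower, limma adjusted p = 0.000176) and -0.85 ± 0.22 in PRC1CPM cells (1.81-fold lower, adjusted p = 0.00381). In PRC1CPM cells the call was lost without OHT replicate 2 (-0.63, adjusted p = 0.0552) and without the gDNA-seq correction of the scale (-0.56).

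Fgf17 (NM_008004, chr14:70636205-70642268, minus strand) also went down. Its values were 297.9, 250.9 and 218.2 in untreated and 127.5, 142.5 and 132.6 in OHT-treated PRC1CKO cells, a change of -0.91 ± 0.28 (1.89-fold lower, limma adjusted p = 0.0143). In PRC1CPM cells 395.1, 291.2 and 265.7 stood against 214.3, 221.1 and 151.2, and the change of -0.69 ± 0.28 missed the threshold (adjusted p = 0.0999). The conditions did not overlap in either line. With the replicate number as a block, Fgf17 was called lower in PRC1CPM cells (limma adjusted p = 0.00166), as it was by DESeq2 and with TMM factors. The call in PRC1CKO cells was lost without OHT replicate 1 (adjusted p = 0.0677) or 3 (adjusted p = 0.0549).

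Fgf4 lies in a cluster of ligands on chromosome 7, 18.04 kb after Fgf3 and 31.3 kb before Fgf15, all on the plus strand. Neither neighbour was called lower in either line. Fgf3 (NM_008007, chr7:144838612-144843348), known from the primitive streak and inner ear, was at 44.7, 24.6 and 72.7 in untreated and 92.2, 87.9 and 97.7 in treated PRC1CKO cells, and at 134.2, 44.3 and 96.2 and then 139, 61.1 and 121.6 in PRC1CPM cells. It was called higher in PRC1CKO cells (1.08 ± 0.40, 2.12-fold, limma adjusted p = 0.0446), whose conditions did not overlap, and not in PRC1CPM cells (0.28 ± 0.40, adjusted p = 0.807). The call was lost without untreated PRC1CKO replicate 2 (0.69, adjusted p = 0.285) and without OHT replicate 1, 2 or 3 (adjusted p = 0.0861, 0.0784 and 0.111), and with TMM factors, without the gDNA-seq correction, without the filter or with a pseudocount of 0.1, and neither DESeq2 nor edgeR made it.

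Fgf15 (NM_008003, chr7:144896532-144900951) was at 324.7, 160.8 and 334.9 in untreated and 187.1, 183.3 and 237.3 in treated PRC1CKO cells. PRC1CPM cells had 361.8, 200.7 and 291.4 and then 251, 221.1 and 274.9. Treated and untreated libraries overlapped in both lines, and the changes of -0.37 ± 0.29 and -0.16 ± 0.29 were not called (limma adjusted p = 0.480 and 0.869).

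**Figure D3:**
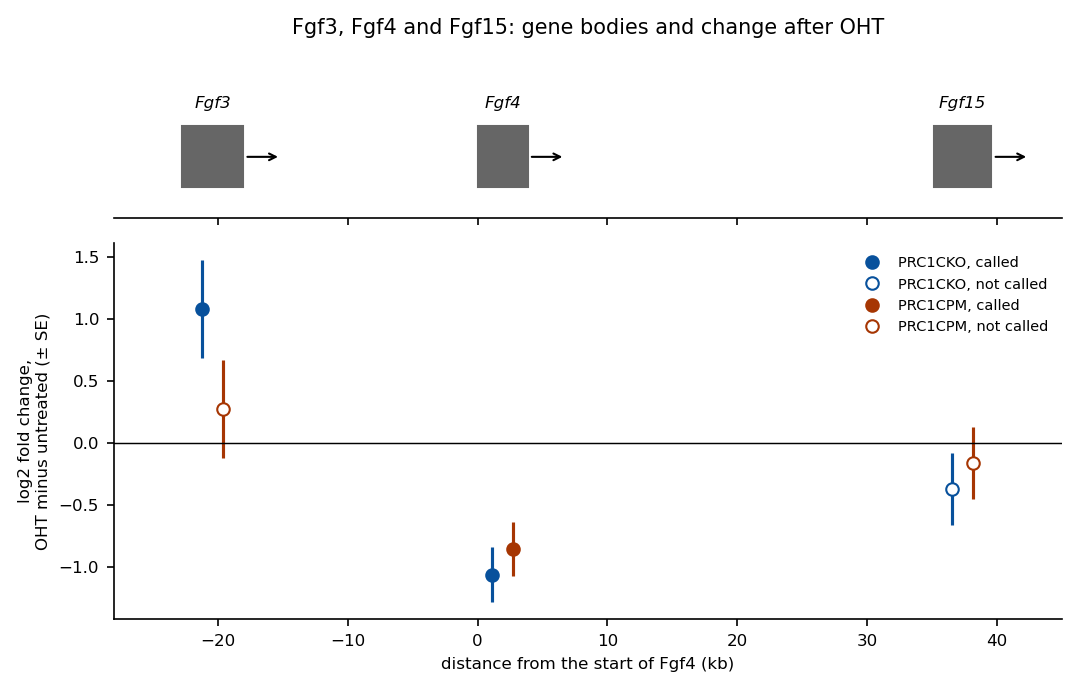
Gene bodies of Fgf3, Fgf4 and Fgf15 by distance from the start of Fgf4 (kb), above their log2 fold changes after OHT treatment in both lines with standard errors. Fgf4 lies below 0 in both lines (-1.06 and -0.85) while Fgf3, 18.04 kb before it, lies above 0 (1.08 and 0.28).

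Of the other ligands called in 1 line, Fgf10 (NM_008002, chr13:118714699-118792573), the mesenchymal signal for limb and lung buds, moved alike in both. It was at 151.9, 64.6 and 61.7 in untreated and 218.8, 166.6 and 212 in treated PRC1CKO cells (1.21 ± 0.40, 2.32-fold, limma adjusted p = 0.0244). Its PRC1CPM values were 212.2, 40.5 and 97.6 and then 312.8, 95.1 and 261.8, where the treated and untreated ranges overlapped (1.06 ± 0.40, adjusted p = 0.0706). Each PRC1CPM replicate was higher treated than untreated, and with the replicate number as a block Fgf10 was called there too (adjusted p = 1.25e-05), as it was without the gDNA-seq correction, from the 6 PRC1CPM libraries alone and in 5 of the 12 fits with 1 library left out. The call in PRC1CKO cells was lost without untreated replicate 3 (0.99, adjusted p = 0.177) or OHT replicate 3 (1.16, adjusted p = 0.0529) or without the filter, and DESeq2 did not make it.

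Fgf1 (NM_010197, chr18:38838673-38918699, minus strand), a ligand without a signal peptide that binds all 4 kinase receptors, was at 257.7, 372.5 and 180.1 in untreated and 320.9, 510 and 404.8 in treated PRC1CKO cells, which overlapped (0.64 ± 0.30, limma adjusted p = 0.144). It was called higher there without untreated replicate 2 (0.91, adjusted p = 0.0331) and with the replicate block. The PRC1CPM libraries went from 118.9, 232.8 and 119.3 to 250, 320.1 and 454.6 with no overlap (1.15 ± 0.30, 2.22-fold, adjusted p = 0.00455). That call was lost without OHT replicate 3 (0.92, adjusted p = 0.0631) and with TMM factors in place of the spike-in scale.

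Fgf2 (NM_008006, chr3:37348653-37404830), basic FGF, rested on few reads, from 0 to 32 a library. It was at 8.94, 6.16 and 7.61 in untreated and 24.4, 22.2 and 17.4 in treated PRC1CKO cells, which did not overlap but missed the threshold (1.38 ± 0.67, limma adjusted p = 0.164), and it was called there with the replicate block and without untreated PRC1CPM replicate 3 (adjusted p = 0.0446). In PRC1CPM cells 28.1, 13.2 and 0 stood against 29.9, 19.3 and 35.1, which overlapped and yet passed (1.93 ± 0.67, adjusted p = 0.0432). The single library at 0 carried that call, and without untreated PRC1CPM replicate 3 the change was 0.48 (adjusted p = 0.871). The PRC1CPM call was lost as well without untreated PRC1CKO replicate 3 (adjusted p = 0.0522) or OHT-treated PRC1CPM replicate 1, 2 or 3 (adjusted p = 0.128, 0.0704 and 0.114). It was also lost with TMM factors (with or without the block), without the filter and with a pseudocount of 0.1. DESeq2 did not make it, nor did edgeR with or without the block.

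The remaining 10 tested ligands were called in neither line in the fit of all libraries. Of these, Fgf5, a marker of the primed epiblast, stood at 10.1 to 109.3 in the 12 libraries and Fgf8, the streak and midbrain signal, at 11.8 to 240.3, with changes of 1.13 and 0.41 in PRC1CKO and 0.22 and 0.55 in PRC1CPM cells. With 1 library left out, the PRC1CKO change ran from 0.32 to 1.69 for Fgf5, which was called higher in 4 of the 12 such fits and from the 6 PRC1CKO libraries alone, and from -0.37 to 1.23 for Fgf8, which was called without untreated replicate 1 (adjusted p = 0.0488). Their untreated libraries were spread widely, with Fgf5 at 47.7, 73.1 and 10.1 and Fgf8 at 117.7, 34.6 and 11.8 in PRC1CKO cells. The hormone-like ligands Fgf15, Fgf21 and Fgf23 were not called after OHT treatment in either line in the fit of all libraries. Fgf21 was called lower in PRC1CPM cells with TMM factors, and Fgf23 higher in PRC1CKO cells without untreated replicate 1 (1.86, adjusted p = 0.0419).

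Fgf6, Fgf16 and Fgf20 had too few reads to pass the filter. Fgf16, a heart and fat ligand, chosen for mention after its values were seen, was at 0 in all 3 untreated PRC1CKO libraries and at 7.23, 7.40 and 8.72 (8, 8 and 10 reads) after OHT treatment. Against a floor of 3 reads in each untreated library, its mean was at least 2.51-fold higher, and without the filter on low reads it was called higher. PRC1CPM cells had 0, 3.77 and 4.07 and then 1.93, 3.09 and 0. Fgf6, a muscle ligand, was between 0 and 5.79 and Fgf20 between 0 and 6.19.

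Among the receptors, Fgfr1, the main receptor of ESCs, did not pass the test. Fgfr1 (NM_001079908, chr8:25518759-25575718) was at 5620, 2860 and 3370 in untreated and 4677, 3036 and 3440 in treated PRC1CKO cells, and at 4700, 2604 and 3320 and then 5135, 2923 and 3419 in PRC1CPM cells. Replicate 1 was the highest in each condition, and the treatments overlapped in both lines. The log2 fold changes were -0.05 ± 0.24 and 0.11 ± 0.24 (limma adjusted p = 0.938 and 0.889).

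Fgfr2 (NM_010207, chr7:130162451-130266808, minus strand), the receptor with which Fgfr1 acts in primitive endoderm, rose in PRC1CKO cells. It went from 1496, 1176 and 668 to 3622, 2407 and 2375 there, with no overlap (1.38 ± 0.24, 2.6-fold, limma adjusted p = 8.43e-06), a call that held with any 1 library left out. In PRC1CPM cells 1713, 1532 and 1262 stood against 2012, 1471 and 1758, which overlapped (0.22 ± 0.24, adjusted p = 0.726). Per kb it was at 26.8 ± 6.81 in treated PRC1CKO cells and 16.7 ± 2.59 in treated PRC1CPM cells. The difference between the responses was -1.16 ± 0.34 and was not called in the interaction (adjusted p = 0.515), but it was called with the replicate number as a block (limma adjusted p = 7.43e-07), and without untreated PRC1CKO replicate 1 it was -1.41 (adjusted p = 0.0354). Between the treated lines Fgfr2 was lower in PRC1CPM cells with the block (adjusted p = 2.76e-05) or with TMM factors and was otherwise not called.

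Fgfr3 (NM_001163215, chr5:33721724-33737068), best known as a brake on bone growth, rose in both lines. It stood at 360.5, 117 and 233.4 in untreated and 479.1, 359.1 and 467.6 in treated PRC1CKO cells, where untreated replicate 1 lay just above the lowest treated library. In PRC1CPM cells it rose from 304.3, 147 and 230.4 to 606.2, 324.7 and 534.5 without overlap. The log2 fold changes were 1.01 ± 0.31 (2.01-fold, limma adjusted p = 0.0139) and 1.11 ± 0.31 (2.16-fold, adjusted p = 0.00802). The call in PRC1CKO cells was lost in DESeq2 and without untreated replicate 2 (0.57, adjusted p = 0.228), and that in PRC1CPM cells without untreated replicate 2 (0.83, adjusted p = 0.0531) or OHT replicate 1 (0.93, adjusted p = 0.0690).

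Neither Fgfrl1 nor Fgfr4 passed the test. Fgfrl1 (NM_001164259, chr5:108694229-108706950) was at 494.5, 358.6 and 307.8 in untreated and 582.1, 546.1 and 547 in treated PRC1CKO cells, which did not overlap (0.56 ± 0.25, limma adjusted p = 0.119), and it was called without untreated replicate 1 (0.75, adjusted p = 0.0188). PRC1CPM cells had 593.3, 450.5 and 496.1 and then 749, 535 and 751.4 (0.39 ± 0.25, adjusted p = 0.394). Fgfr4 (NM_008011, chr13:55152818-55168759), a receptor of liver and muscle, was at 423, 290.1 and 326.4 and then 382.4, 344.3 and 321 in PRC1CKO cells, and at 505, 295 and 356.5 and then 649.6, 388.1 and 525.8 in PRC1CPM cells (0.03 and 0.44). Its treated and untreated libraries overlapped in both lines.

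The feedback genes divided into an ETS factor that rose in both lines, Sprouty genes that rose in 1 line each, and 6 members that were called in neither. Etv4 (NM_008815, chr11:101769742-101785310, minus strand) was at 1236, 738.8 and 678.2 in untreated and 1498, 1468 and 1365 in treated PRC1CKO cells (0.76 ± 0.26, 1.69-fold, limma adjusted p = 0.0315). Its PRC1CPM values rose from 984.5, 409.9 and 610 to 2145, 1104 and 1756 (1.36 ± 0.26, 2.56-fold, adjusted p = 9.28e-05). No treated library fell to the untreated range in either line. In PRC1CKO cells the call was lost on leaving out untreated replicate 2 (adjusted p = 0.0763) or 3 (0.59, adjusted p = 0.224) or any of OHT replicates 1, 2 and 3 (adjusted p = 0.0745, 0.0713 and 0.0510), and in DESeq2, without the gDNA-seq correction, without the filter and with a pseudocount of 0.1, whereas the call in PRC1CPM cells held in each case.

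Spry2 (NM_011897, chr14:105891947-105896819, minus strand), which blocks signalling between receptor and RAS, was at 1646, 1190 and 1109 in untreated and 2728, 2471 and 2203 in treated PRC1CKO cells (0.92 ± 0.22, 1.9-fold, limma adjusted p = 0.00100). In PRC1CPM cells 1165, 1274 and 1152 stood against 1774, 1253 and 1817, with OHT replicate 2 inside the untreated range (0.41 ± 0.22, adjusted p = 0.262), and Spry2 was called there when the gDNA-seq correction was taken out. The PRC1CKO conditions did not overlap, and that call held with any 1 library left out.

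Spry4 (NM_011898, chr18:38586265-38601268, minus strand), a related inhibitor, was called in the other line. It was at 3028, 2887 and 1713 in untreated and 2950, 3168 and 3348 in treated PRC1CKO cells, which overlapped (0.35 ± 0.22, limma adjusted p = 0.311), and rose from 1571, 1758 and 1370 to 2616, 2089 and 2922 in PRC1CPM cells (0.69 ± 0.22, 1.62-fold, adjusted p = 0.0213). Untreated PRC1CPM libraries were mostly below the untreated PRC1CKO ones, and the treated levels of the lines lay closer together. The call was lost without untreated PRC1CPM replicate 3 (0.60, adjusted p = 0.149) or OHT replicate 1 (0.66, adjusted p = 0.0619) or 3 (0.58, adjusted p = 0.146), and with TMM factors (with or without the block). Spry4 lies 237 kb from Fgf1 on chromosome 18.

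Dusp6 (NM_026268, chr10:99263231-99267489), the phosphatase that acts on ERK and is a standard readout of FGF signalling, was not called. It was at 1305, 892.7 and 597 in untreated and 1241, 1025 and 793.8 in treated PRC1CKO cells, which overlapped (0.18 ± 0.25, limma adjusted p = 0.732). In PRC1CPM cells it was at 652.1, 705.9 and 497.5 and then 930.5, 821.9 and 764.6, which did not overlap (0.45 ± 0.25, adjusted p = 0.295), and it was called higher there when the gDNA-seq correction was taken out. Etv5, the ETS factor closest to Etv4, was at 7314, 5834 and 4694 and then 4345, 3643 and 4176 in PRC1CKO cells, so that each treated library was below each untreated one, and it missed the threshold (-0.53 ± 0.20, adjusted p = 0.0551). It was called lower there with TMM factors (with or without the block), without the gDNA-seq correction and without untreated replicate 3 (-0.69, adjusted p = 0.0258). In PRC1CPM cells the change of Etv5 was -0.31 ± 0.20 (adjusted p = 0.410), so the signs of Etv4 and Etv5 differed in both lines. Spry1, Spry3, Dusp4 and Etv1 were called in neither line, with changes between -0.40 and 1.03. The 1.03 is that of Spry3 in PRC1CPM cells, which had 0 to 20 reads a library. It ran from -0.31 to 1.91 with 1 library left out and was called without untreated PRC1CPM replicate 1 (adjusted p = 0.0387).

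**Figure D4:**
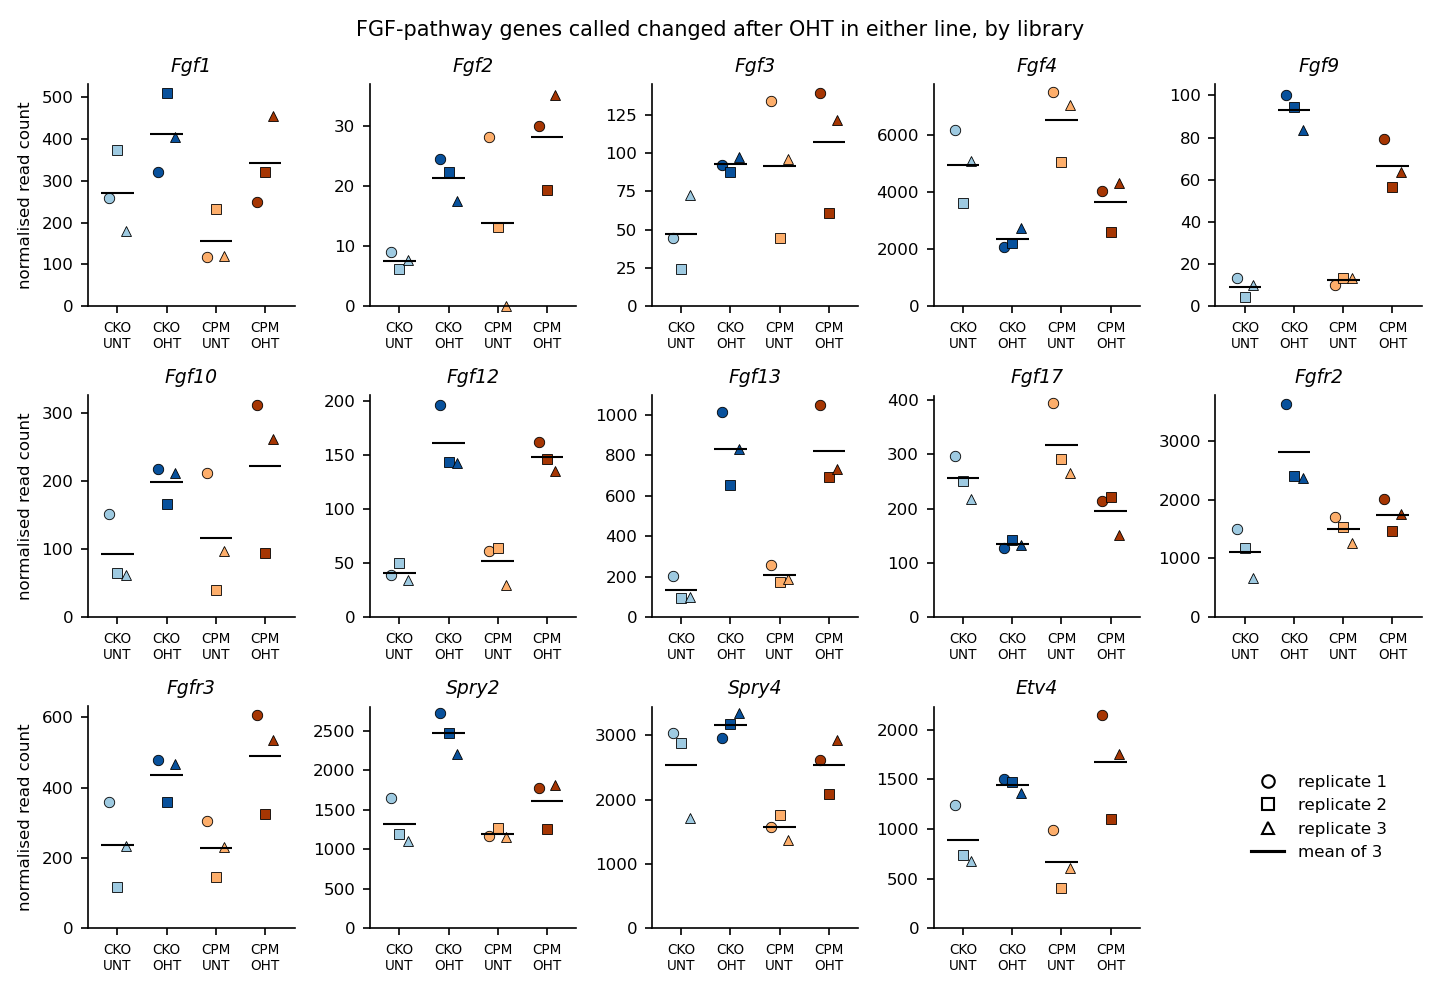
Normalised read count (linear axis from 0) of the 14 members called in either line, in each library; circles, squares and triangles are replicates 1, 2 and 3 and bars are means of 3 libraries. Fgf4 and Fgf17 are lower and the others higher after OHT treatment, with an untreated and a treated PRC1CKO library of Fgfr3 side by side near 360.

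Comparing the lines directly, few members differed by limma, and which ones depended on the scale. Between the OHT-treated lines, 1 of the 33 members was called higher in PRC1CPM cells and 0 lower (limma; background 1.25% higher and 0.218% lower), against 9 at an unadjusted p under 0.05, and DESeq2 and edgeR gave the same counts of 1 and 0. With TMM factors the counts turned to 0 higher and 4 lower, against 3.09% and 1.54% of all transcripts. The member called higher by limma on the spike-in scale was Fgf18, a ligand of cartilage and lung, named after its values were seen. It was at 98.5, 126.8 and 118.6 in treated PRC1CKO and 234.6, 296.9 and 328.6 in treated PRC1CPM cells. The lines did not overlap, and the difference was 1.31 ± 0.31 (2.48-fold, adjusted p = 0.0119). The call was lost without OHT-treated PRC1CKO replicate 1 (adjusted p = 0.0632) or OHT-treated PRC1CPM replicate 3 (adjusted p = 0.0952), and with TMM factors.

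Libraries with the same replicate number deviated together weakly across the lines, with correlations of 0.140 to 0.225 between treated lines. With that number as a block 4 members were called higher and 4 lower in treated PRC1CPM than in treated PRC1CKO cells, where 6.68% and 1.37% of all transcripts were. Fgf4, Fgf8, Fgf11 and Fgf18 were the higher ones and Fgf7, Fgfr2, Spry2 and Etv1 the lower ones. TMM factors without the block called the same 4 lower. For Fgf4 the difference was 0.62 (limma adjusted p = 7.59e-05 with the block, 0.176 without it), for Fgfr2 -0.66 (0.181 without it) and for Spry2 -0.63 (0.000105 and 0.163).

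Between the untreated lines, 1 member was called higher and 1 lower in PRC1CPM cells (limma; background 2.21% and 0.478%), both named after their values were seen. Fgf23, the bone hormone that controls phosphate, was at 5.96, 0 and 5.07 in PRC1CKO and 23.0, 15.1 and 16.3 in PRC1CPM cells (2.43 ± 0.65, limma adjusted p = 0.0259). These are low counts, and the call was lost without untreated PRC1CKO replicate 2 (adjusted p = 0.364) or untreated PRC1CPM replicate 1 or 3 (adjusted p = 0.0786 and 0.0530) and was not made by DESeq2 or edgeR. Etv1 was at 1163, 1090 and 783.9 in PRC1CKO and 544.7, 446.7 and 624.9 in PRC1CPM cells, with no overlap (-0.90 ± 0.24, 1.87-fold lower, adjusted p = 0.0266). Its call was lost without untreated PRC1CKO replicate 2 (adjusted p = 0.122) or untreated PRC1CPM replicate 1 or 2 (adjusted p = 0.0509 and 0.0968).

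With the block, 6 members were higher (Fgf3, Fgf5, Fgf8, Fgf13, Fgf14 and Fgf23) and 3 lower (Fgf1, Spry4 and Etv1) in untreated PRC1CPM than in untreated PRC1CKO cells, where 9.63% and 1.49% of all transcripts were called. Both lines came from single clones that differ in their Ring1a allele before treatment, so clone and allele cannot be told apart.

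Other genes of the pathway were taken from a list of 64, of which 62 had a row. In PRC1CKO cells 10 of the 62 rose and 3 fell by limma (16.1% and 4.84%, against 16.5% and 3.09% of all transcripts), and in PRC1CPM cells 7 rose and 0 fell (11.3% and 0%, against 13.1% and 1.4%). On the spike-in scale with the gDNA-seq correction, the shares that rose were not above the background in either line. All of these calls lay in the 3 groups described next. Without that correction 17 of the 62 rose in PRC1CPM cells, a share above the 20.2% of all transcripts. With the replicate number as a block, 11 rose and 1 fell in PRC1CPM cells (background with the block 17.9% and 2.72%).

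Coreceptors and heparan sulphate genes gave most of the increases, with 6 of 19 called higher in each line (31.6%, against 16.5% and 13.1% of all transcripts). Flrt2, a transmembrane partner of FGF receptors, went from 175.8, 137 and 145.4 to 1008, 912.7 and 1009 in PRC1CKO cells (2.68 ± 0.25, limma adjusted p = 1.88e-12) and from 306.9, 265.8 and 292.8 to 872.6, 626.3 and 842.4 in PRC1CPM cells (1.42 ± 0.25, adjusted p = 1.98e-05). Flrt1, of the same family, rose from 87.9, 53.1 and 69.3 to 370.6, 244.4 and 295.7 in PRC1CKO cells and from 147, 55.6 and 66.4 to 444, 191.8 and 280.4 in PRC1CPM cells (2.11 and 1.81). Neither gene overlapped between conditions in either line.

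Hs6st2, which adds sulphate to heparan chains, rose from 597.3, 434.8 and 174.2 to 2393, 1636 and 1890 in PRC1CKO cells (2.45 ± 0.28, limma adjusted p = 7.73e-10). In PRC1CPM cells it rose from 792.7, 1236 and 679.1 to 2486, 2452 and 1510 (1.26 ± 0.28, adjusted p = 0.000707). The proteoglycan cores Sdc4 and Gpc1 rose in both lines as well, with no overlap. Sdc4 went from 6386, 5094 and 4099 to 11038, 12088 and 8095 in PRC1CKO and from 5952, 4756 and 3785 to 11409, 9329 and 7985 in PRC1CPM cells (1.01 and 1.00). Gpc1 went from 2260, 1812 and 1738 to 3382, 3330.4 and 2929 and from 1643, 1457 and 1276 to 2951, 2128 and 1977 (0.74 and 0.67). Flrt3 was called higher in PRC1CKO cells alone (0.73) and the FGF23 coreceptor Kl in PRC1CPM cells alone (1.70).

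Among 13 other inhibitors of the pathway, 1 rose in both lines, the phosphatase Dusp9 (7.69%, below the 16.5% and 13.1% of all transcripts). It went from 3663, 2271 and 2388 to 4962, 4386 and 4457 in PRC1CKO (0.76 ± 0.23, limma adjusted p = 0.0112) and from 3113, 1648 and 2698 to 6551, 3650.1 and 5902 in PRC1CPM cells (1.12 ± 0.23, adjusted p = 0.000234). With the block, limma also called Dusp2 (1.05, adjusted p = 0.0279) and Dusp5 (0.73, adjusted p = 0.000176) higher in PRC1CPM cells. Dusp2 was called with it in PRC1CKO cells too (1.03, adjusted p = 0.0260), where libraries of the same number correlated weakly. Of 10 immediate early and other ERK target genes, 3 rose (Fosl1, Phlda1 and Etv6) and 3 fell (Egr1, Fos and Junb) in PRC1CKO cells (16.5% and 3.09% of all transcripts). Limma called 0 in PRC1CPM cells (13.1% and 1.4% of all transcripts). With the block, which called 17.9% of all transcripts higher there, limma called Fosl1 and Phlda1 higher (1.07 and 0.76, adjusted p = 0.00590 and 0.00104). Fos was at 2072, 1537 and 2182 in untreated and 1278, 1197 and 882.8 in treated PRC1CKO cells (-0.79 ± 0.22, adjusted p = 0.00672), and at 3156, 2477 and 3011 and then 4725, 2775 and 2895 in PRC1CPM cells (0.23 ± 0.22). Egr1 and Fos were both higher in treated PRC1CPM than in treated PRC1CKO cells, by 1.21 (adjusted p = 0.000639) and 1.60 (adjusted p = 2.77e-06). In the interaction test limma called 0 of the 62 genes without the block. With it, Egr1 (0.95, adjusted p = 7.02e-05) and Fos (1.02, adjusted p = 1.93e-05) were called higher and Flrt2 (-1.26, adjusted p = 1.93e-05) and Hs6st2 (-1.18, adjusted p = 1.46e-06) lower in their response in PRC1CPM than in PRC1CKO cells (background 0.46% and 1.45%). Without the block, Flrt2 and Hs6st2 were called higher in untreated PRC1CPM than in untreated PRC1CKO cells (0.92 and 1.29, limma adjusted p = 0.0279 and 0.00405). Neither was called between the treated lines (-0.34 and 0.10).

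Markers of the primitive endoderm, the lineage that FGF4 induces in the blastocyst, moved with treatment. Of 9 marker genes, 6 rose in PRC1CKO and 8 in PRC1CPM cells, where 16.5% and 13.1% of all transcripts rose, and the list's median log2 fold changes were 1.71 and 1.49. Its summed normalised read count was 15547, 9022 and 6944 in untreated and 26107, 22579 and 19829 in treated PRC1CKO cells, and 15990, 9620 and 12218 and then 25244, 15448 and 17225 in PRC1CPM cells. The gene of the list with the most signal per kb was Sparc, at 8976, 7827 and 6810 of the sum in treated PRC1CKO cells, and it was not called (0.54 and 0.25), while the transcription factor Gata6 rose from 262.2, 127.8 and 79.5 to 1361, 1029 and 914.2 and from 53.7, 67.9 and 75.9 to 368.7, 210.3 and 404.2 (2.96 and 2.26). Gata6 and the receptor gene Pdgfra were lower in treated PRC1CPM than in treated PRC1CKO cells, and no gene of the list was at 0 in all libraries. Their part in the increases of Fgfr2, Fgfr3 and the other members was not tested.

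Of the 11 naive markers, 0 rose and 4 fell in PRC1CKO cells, and 1 rose and 2 fell in PRC1CPM cells. Over all transcripts 3.09% fell in PRC1CKO and 1.4% in PRC1CPM cells. The riser was Tbx3 (0.97, limma adjusted p = 0.000299, and 0.56 without a call in PRC1CKO cells). Klf2 and Nr0b1 fell in both lines (by 1.47 and 1.04, and by 1.06 and 1.08, on the log2 scale), and Sox2 and Prdm14 fell in PRC1CKO cells. Sox2, which together with Oct4 is known to activate Fgf4, went from 8858, 6164 and 6431 to 3398, 4012 and 4065 there (-0.89 ± 0.20, limma adjusted p = 0.00051), and in PRC1CPM cells from 6433, 5938 and 6299 to 5101, 3835 and 4775 without a call (-0.45 ± 0.20, adjusted p = 0.136). The part of these changes in the fall of Fgf4 was not tested. Pou5f1, which encodes Oct4, and Nanog were called in neither line.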

How the data were processed

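Labels gave the line, treatment and replicate of the 12 cRNA-seq libraries, and the 12 matched gDNA-seq libraries were not analysed here. The members and lists were chosen with earlier results of these data known. The authors removed rDNA reads with Bowtie 2, aligned the rest to mm10 joined with dm6 using STAR and then Bowtie 2, kept unique alignments, removed PCR duplicates and counted reads over gene bodies, and the submitters' notes also name SAMtools, bedtools, deepTools and DESeq2. The library kit was directional, but whether the counting used strand is not given in the sources used here. The authors' deposited values are a normalised signal, gene-body reads divided by a size factor per library from Drosophila reads, corrected by gDNA-seq. The authors' own log2 fold changes, adjusted p-values and their list of partially derepressed genes, deposited alongside, were not used.

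Dividing by the smallest step gave whole reads for 100% of the values in every library (tolerance 0.02 of a read). Log2(value + 1) was fitted with limma 3.58.1 (R 4.3.3; 4 condition means, 12 libraries, mean-variance trend, Benjamini-Hochberg adjustment over the 16940 transcripts that reached 10 reads in 3 or more libraries), and p-values measure the spread between these libraries. The interaction was called at an adjusted p under 0.05 alone. DESeq2 1.42.0 and edgeR 4.0.16 were run on the recovered reads and called 2757 and 2702 transcripts higher and 560 and 549 lower in PRC1CKO cells after OHT treatment, where limma called 2787 and 524. Other alternatives were TMM factors, the spike-in scale without the gDNA-seq correction, no filter, the replicate number as a block, 0.1 as pseudocount, the 6 libraries of a line alone and each library left out, and, chosen after seeing the data, the block with edgeR or TMM and replicates 2 and 3 alone.

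Deviations from condition means correlated between libraries of the same number at 0.255, 0.438 and 0.246 for PRC1CPM treatment, 0.225, 0.140 and 0.142 between treated lines and 0.220, 0.377 and 0.186 between untreated lines, so these are also given with the block. For PRC1CKO treatment the values were 0.179, 0.0988 and 0.148, which overlap those between treated lines. The check thus does not set PRC1CKO cells apart, and every block result is an alternative to the main fit. The 36 pairs of different numbers averaged -0.102. Deviations cancel within a condition, so this average largely follows from the same-number values and is no separate baseline.

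Genes given in full were members called after OHT treatment or in the interaction and the 3 of highest untreated level per kb in each role, and from the pathway list those called in both lines. Other genes given by library, such as Fos, Etv5 in PRC1CKO cells and single markers, were chosen after their values were seen. Part of the pathway list enters its totals and is otherwise not reported here. Promoters were printed for at most 6 members called higher and 3 called lower in both lines, where RefSeq (GRCm38.p6) gave one. Intervals of counts cover counting error only. Python 3.11.15 with numpy 2.4.6, pandas 2.3.3 and matplotlib 3.10.9 made summaries and plots.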

Additional observations from a re-analysis of the deposited data

How the results depend on the processing

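The 23 calls of members after OHT treatment and between lines gave 526 values under the alternatives, of which 459 kept direction and call, 67 kept direction only and 0 reversed. Members near the limit of 10 reads (Fgf2, Fgf21, Fgf22, Fgf23, Spry3) have large counting error, and each line is 1 clone. Under the other scalings the median of all transcripts moved from 0.12 and 0.10 in PRC1CKO and PRC1CPM cells to -0.0019 and -0.0072 with TMM, and to -0.037 and 0.39 when the gDNA-seq correction was taken out, and the role medians moved with it. The cause of the changes below was not tested.

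In PRC1CKO cells after OHT treatment, DESeq2 called 5 members higher, a share below the 16.3% of all transcripts, and TMM with the block called 4 lower (7.26%). In PRC1CPM cells 5 were higher with TMM (14.1%), and the count lower was 2 with DESeq2 (1.58% of all transcripts), 3 with TMM (3.51%), 0 without the gDNA-seq correction (0.401%), 2 with the replicate block (2.72%), 2 with the block and edgeR (2.8%), and 4 with the block and TMM (4.08%). In the labels, replicates of either line share only a number. The block in PRC1CKO cells called 12 members higher (adding Fgf1, Fgf2 and Fgf5) and 3 lower (adding Fgf11), where 20.3% and 4.86% of all transcripts were called. In the interaction the block called 1 lower, Fgfr2 (limma adjusted p = 7.43e-07), alone, with edgeR and with TMM. The block alone ended none of the 23 calls. With edgeR it ended 1, that of Fgf2 in PRC1CPM cells, and with TMM 2, those of Fgf2 and Spry4 in PRC1CPM cells.

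Between the OHT-treated lines, the count higher was 0 with TMM (3.09% of all transcripts), 2 without the gDNA-seq correction (2.6%), 0 without a filter (0.687%), 4 with the block (6.68%), 4 with the block and edgeR (7.02%) and 2 with the block and TMM (4.64%), and the count lower was 4 with TMM (1.54%), with the block (1.37%), and with the block and edgeR or TMM (1.71% and 2.15%). Limma gave 10 members (TMM) and 9 (no filter) at an unadjusted p under 0.05 there. Between the untreated lines, the count higher was 0 with DESeq2, edgeR or a pseudocount of 0.1 (10 members at an unadjusted p under 0.05 with DESeq2 and with edgeR), 2 with TMM, 6 with the block, 5 with the block and edgeR and 4 with the block and TMM, where 1.91% (pseudocount of 0.1) to 9.63% (block) of all transcripts were higher. The count lower was 3 with TMM, without the gDNA-seq correction, with the block, and with the block and edgeR, 4 with the block and TMM, and 0 with replicates 2 and 3 alone, where 0.46% to 2.28% of all transcripts were lower.

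Of the pathway list, 4 rose in PRC1CKO cells without the gDNA-seq correction, a share below the 12.6% of all transcripts. There 6 fell with TMM (6.69% of all transcripts), 5 without the gDNA-seq correction (3.93%), 5 with the block (4.86%), and 6 with the block and edgeR or TMM (4.73% and 7.26%). In PRC1CPM cells 17 rose without the gDNA-seq correction, a share above the 20.2% of all transcripts. There 11 rose with the block, alone or with edgeR (17.9% and 17.8% of all transcripts). With the block, alone or with edgeR or TMM, 1 fell (2.72%, 2.8% and 4.08%). In PRC1CKO cells the ligand median was 0.40 without the gDNA-seq correction and 0.81 with replicates 2 and 3 alone, the receptor median 0.44 with TMM (with or without the block), 0.40 and 0.72, and the feedback median 0.060 with TMM (with or without the block), 0.024 and 0.30. In PRC1CPM cells without the gDNA-seq correction they were 0.51, 0.69 and 0.71.

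With 1 library left out, 6 to 13 members rose and 1 to 3 fell in PRC1CKO cells, and 5 to 10 rose and 0 to 1 fell in PRC1CPM cells. Over all transcripts 11.9% to 22% rose and 1.92% to 3.98% fell in PRC1CKO cells, and 8.49% to 15% rose and 0.726% to 2% fell in PRC1CPM cells, and the 13 and the 22% came from the same fit, without untreated PRC1CKO replicate 1. The 5 came without OHT-treated PRC1CPM replicate 1 or 3 and the 0, which is Fgf4, without replicate 2; in PRC1CKO cells the 1 came without OHT replicate 1 or 3 and lost Fgf17. The interaction gave 0 to 0 higher and 0 to 1 lower (0% to 0.0059% and 0.0059% to 0.165% of all transcripts). The treated lines gave 0 to 2 higher and 0 to 0 lower (0.478% to 2.36% and 0.1% to 0.46%). The untreated lines gave 0 to 4 higher and 0 to 2 lower (1% to 8.81% and 0.272% to 0.62%). The 4 and the 8.81% came from the same fit, without untreated PRC1CKO replicate 1. In the pathway list 5 to 13 rose and 0 to 4 fell in PRC1CKO cells, and 5 to 10 rose and 0 to 0 fell in PRC1CPM cells. Medians ran from 0.32 to 0.65 and 0.052 to 0.34 for ligands, 0.41 to 0.75 and 0.26 to 0.56 for receptors, and -0.11 to 0.46 and -0.070 to 0.46 for feedback genes in PRC1CKO and PRC1CPM cells.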

Other observations

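Markers of other lineages also rose after OHT treatment, beyond the primitive endoderm. Of 6 tested mesoderm and streak markers, 4 rose in each line (limma; 16.5% of all transcripts rose and 3.09% fell in PRC1CKO, and 13.1% and 1.4% in PRC1CPM cells), among them the receptor gene Kdr, from 98.3, 50.8 and 52.4 to 321.8, 276.8 and 288.8 in PRC1CKO and from 101, 64.1 and 71.8 to 298.3, 177.1 and 301.2 in PRC1CPM cells (2.19 and 1.69). Summed over all 7 genes with a row, the list stood at 197.8 to 454.3 in untreated and 674.8 to 934.7 in treated PRC1CKO cells, and at 252.6 to 432.2 and then 489.4 to 963.3 in PRC1CPM cells. Of 7 neural markers, 5 rose and 1 fell in PRC1CKO and 3 rose in PRC1CPM cells, led in PRC1CKO cells by Pax6, the eye and forebrain factor (3.06 and 1.28). Of 4 tested trophectoderm markers, 2 rose and 1 fell in PRC1CKO and 3 rose in PRC1CPM cells, with Hand1 higher in both (2.68 and 1.97). Of 6 primed epiblast markers, Sox3 rose (2.57 and 2.01) and Otx2 fell (-1.01 and -1.20) in both lines, and Dnmt3b rose in PRC1CKO cells (0.68).

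Fibroblast markers were at their highest in replicate 1 of PRC1CPM cells. The collagen gene Col1a1 was at 10522, 2036 and 2830 in untreated and 12136, 3198 and 4417 in treated PRC1CPM cells, and at 1120 to 3667 in the 6 PRC1CKO libraries. The matrix genes Dcn and Lum, which also mark fibroblasts, had too few reads to be tested. Whether this bears on the members that are high in replicate 1, such as Fgfr1 and Fgf8 in PRC1CPM cells, was not tested.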
